A study of Arabidopsis thaliana with 12 samples.

Results

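UDP-glycosyltransferases (UGTs) transfer a sugar, most often glucose, from a UDP-sugar to a small molecule. Their genes were taken as all rows of the count table whose gene symbol has the form of a UGT name: UGT, a family number, a letter for the subfamily and a number for the gene. The pattern found 58 of 23739 genes, in 13 families. Families 71 and 73 had 10 genes each, family 76 had 8, families 84 and 85 had 6 each, family 74 had 5, family 72 had 4, family 78 had 3, family 75 had 2, and families 80, 87, 88 and 89 had 1 each. Of the 58 UGT genes, 52 passed the filter on low counts and were tested. The other 6, UGT71B8, UGT73C2, UGT76E1, UGT78D3, UGT84B1 and UGT84B2, reached no more than 22 counts in any library.

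To determine how these genes respond to flg22, an elicitor derived from bacterial flagellin, mRNA of Arabidopsis thaliana seedlings, taken whole, was sequenced in 2 genotypes. The wild type was the accession Col-0. The mutant was ate1-2 ate2-1 (a1a2) in the Col-0 background, in which both Arg-transferases of the Arg/N-degron pathway of protein degradation are affected. Seedlings 10 days old, in liquid medium, received 1 µM flg22 or an equal volume of water (mock) for 1 h. The 4 groups (Col-0 mock, Col-0 flg22, a1a2 mock and a1a2 flg22) had 3 libraries each, 12 in all, and each library came from pooled seedlings. In whole seedlings, fewer cells of a type and less RNA per cell cannot be told apart.

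Glycosylation makes hormones, defence compounds and foreign chemicals more soluble and usually less active, and it readies them for storage in the vacuole. In Arabidopsis, family 1 UGTs conjugate salicylate, abscisic acid, cytokinins, auxins, jasmonates and brassinosteroids, and they also act in the synthesis of glucosinolates, flavonoids and lignin precursors. Many lie side by side in the genome as near copies, so a family number groups genes by sequence and not by substrate. In pattern-triggered immunity, which flg22 starts through the receptor FLS2, plants reprogram transcription within the first hour and make salicylate and other defence compounds that UGTs can conjugate.

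The sequences upstream of 5 UGT genes are shown because 4 of them had large rises after flg22 (UGT71B6, UGT73B5, UGT73B4 and UGT85A1) and UGT73C1 had the largest fall. Each is the 250 bases before the gene's start in the RefSeq annotation of TAIR10.1, written 5′ to 3′ on the strand of the gene. Capitals mark matches, on either strand, of TTGAC, the core of the W-box that WRKY transcription factors bind, or of TGACG, the core of as-1-type elements that TGA factors bind. The 2 motifs share the letters TGAC, so matches can overlap. The windows were chr3:7676520-7676769 (minus strand) for UGT71B6, chr2:6758180-6758429 (plus) for UGT73B5, chr2:6761385-6761634 (plus) for UGT73B4, chr1:7906970-7907219 (minus) for UGT85A1 and chr2:15412065-15412314 (minus) for UGT73C1.
UGT71B6: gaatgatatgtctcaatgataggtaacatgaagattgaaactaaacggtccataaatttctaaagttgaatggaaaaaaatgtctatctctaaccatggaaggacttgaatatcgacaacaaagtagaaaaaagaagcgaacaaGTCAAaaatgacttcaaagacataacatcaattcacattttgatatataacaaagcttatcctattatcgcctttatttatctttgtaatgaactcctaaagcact
UGT73B5: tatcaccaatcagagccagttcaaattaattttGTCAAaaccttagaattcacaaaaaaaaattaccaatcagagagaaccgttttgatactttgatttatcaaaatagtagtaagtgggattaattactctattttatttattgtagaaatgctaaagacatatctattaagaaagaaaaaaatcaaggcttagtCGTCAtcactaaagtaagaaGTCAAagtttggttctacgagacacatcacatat
UGT73B4: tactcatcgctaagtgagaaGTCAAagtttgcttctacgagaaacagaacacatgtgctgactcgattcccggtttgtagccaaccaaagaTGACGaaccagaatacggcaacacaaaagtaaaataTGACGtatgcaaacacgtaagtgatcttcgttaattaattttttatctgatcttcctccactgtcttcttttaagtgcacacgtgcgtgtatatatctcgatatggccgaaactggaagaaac
UGT85A1: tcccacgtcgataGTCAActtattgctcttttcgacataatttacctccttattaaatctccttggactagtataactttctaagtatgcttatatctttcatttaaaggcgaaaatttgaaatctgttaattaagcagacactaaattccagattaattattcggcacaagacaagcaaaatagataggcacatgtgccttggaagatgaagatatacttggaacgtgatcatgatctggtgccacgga
UGT73C1: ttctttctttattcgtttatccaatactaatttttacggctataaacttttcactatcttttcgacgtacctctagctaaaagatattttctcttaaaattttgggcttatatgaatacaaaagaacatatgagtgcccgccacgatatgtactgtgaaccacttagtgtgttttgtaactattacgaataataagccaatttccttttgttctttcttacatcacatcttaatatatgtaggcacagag
UGT71B6 and UGT85A1 each had 1 match of TTGAC and none of TGACG, UGT73B5 had 2 and 1, UGT73B4 had 1 and 2, and UGT73C1 had none of either. The window of UGT73B4 overlaps the gene model of UGT73B5, since RefSeq lists a longer UGT73B5 transcript that runs on into UGT73B4. Of the 12 UGT genes that rose in both genotypes, 8 held TTGAC and 6 held TGACG in this window. Of the 11 that fell in Col-0, 5 held TTGAC and 2 held TGACG, and of the 29 called in neither genotype the numbers were 16 and 3. Among all 27443 windows of this length in the genome, 44.9% held TTGAC and 18.6% held TGACG. These are matches of letters and do not show that a factor binds there.

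Some neighbouring UGT genes are near copies, with coding identities from 56.7% to 90.9% over the adjacent pairs, which bears on how far their counts are separate. UGT73B4 and UGT73B5 had the highest identity of all pairs compared within families: 90.9% over the coding sequence, with an identical run of 140 bases. Below is the stretch of 132 coding bases (bases 1063 to 1194 of UGT73B4 and of UGT73B5, and 1060 to 1191 of UGT73B3) that encodes the signature box by which plant UGTs hold the UDP-sugar. Capitals mark bases that differ from UGT73B4.
UGT73B4: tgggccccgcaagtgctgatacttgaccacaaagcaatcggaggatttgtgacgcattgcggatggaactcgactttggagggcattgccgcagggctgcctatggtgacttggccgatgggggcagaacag
UGT73B5: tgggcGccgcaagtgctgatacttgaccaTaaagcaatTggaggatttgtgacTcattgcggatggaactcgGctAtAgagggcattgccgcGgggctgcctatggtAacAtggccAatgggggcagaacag
UGT73B3: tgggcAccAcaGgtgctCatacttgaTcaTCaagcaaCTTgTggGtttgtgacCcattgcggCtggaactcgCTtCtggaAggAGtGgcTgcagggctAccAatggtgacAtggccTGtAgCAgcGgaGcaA
UGT73B5 differed from UGT73B4 at 11 of these bases and UGT73B3 differed at 33. A read that falls wholly within the identical run matches UGT73B4 and UGT73B5 equally, unless its mate places it. Both genes had fractional counts, as did UGT73B1 and UGT76E1, and how reads were shared between the copies was not tested, so their separate values are uncertain.

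The libraries held 20285661 to 22433533 counts, of which the UGT genes took 0.137% to 0.191%. The labels were checked first. ATE1 (locus AT5G05700) fell from 22.1 to 22.9 CPM in mock Col-0 to 2.19 to 2.89 CPM in mock a1a2, and ATE2 from 5.86 to 6.73 CPM to 0.263 to 0.513 CPM. Of 4 flg22 marker genes, WRKY30, CYP81F2 and PHI-1 rose in both genotypes, while FRK1, with a log2 fold change of 3.15 in Col-0 and 2.36 in a1a2, did not pass the test (adjusted p = 0.088 and 0.20). None of 4 shoot and 4 root marker genes was a DEG after flg22 in either genotype. The summed root markers ranged from 55.2 to 115.8 CPM in mock Col-0 and from 54.2 to 71.1 CPM in mock a1a2, and the summed shoot markers from 16580 to 34260 CPM in Col-0 after flg22, so libraries of a group differed in these levels. Their part in the UGT values was not tested.

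To ask which UGT genes respond to flg22, treated and mock seedlings were compared within each genotype. CPM are counts divided by the library total times its TMM factor, then scaled by the same constant in every library. TMM factors ran from 1.053 to 1.157 in the mock libraries and from 0.8552 to 0.9595 after flg22. CPM summed over all genes are therefore not equal between libraries and are higher in the treated ones. A gene was called a DEG when its Benjamini-Hochberg adjusted p over all 20439 tested genes in edgeR was below 0.05 and its change was larger than 1.5-fold. In Col-0, 12 of the 52 tested UGT genes rose and 11 fell, which is 44.2% of them, against 21.0% of all tested genes (13.9% rose and 7.06% fell). In a1a2, 12 rose and 9 fell, or 40.4%, against 21.2% of all tested genes (13.9% rose and 7.29% fell). The 12 risen genes were the same in both genotypes, and the 9 genes that fell in a1a2 also fell in Col-0. UGT85A3 and UGT85A7 fell in Col-0 alone. UGT85A7, which these counts include, entered the test only through the Col-0 mock group, in which it was highest. Over all tested genes, 12.7% rose in both genotypes and 5.63% fell in both. Treated libraries lay wholly above mock libraries for 13 UGT genes and wholly below for 14 in Col-0 (22.0% and 17.4% of all tested genes), and for 13 and 15 in a1a2 (22.8% and 19.1%). The tested UGT genes had a median log2 fold change of 0.0016 in Col-0 and -0.034 in a1a2, against -0.015 and -0.0019 over all tested genes. The summed CPM of the UGT genes went from 1391 ± 83.8 to 1831 ± 216 in Col-0 and from 1353 ± 49.4 to 1684 ± 249 in a1a2 (mean ± SD, n = 3). Summed over all tested genes, CPM went from 908900 to 1079000 in Col-0 and from 925300 to 1104000 in a1a2 (group means). A rise in summed CPM was thus not particular to the UGT genes. With library totals alone in place of TMM, 12 UGT genes rose and 15 fell in Col-0, and 10 rose and 17 fell in a1a2, while the median of all genes moved to -0.26 in both genotypes.

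**Figure D1:**
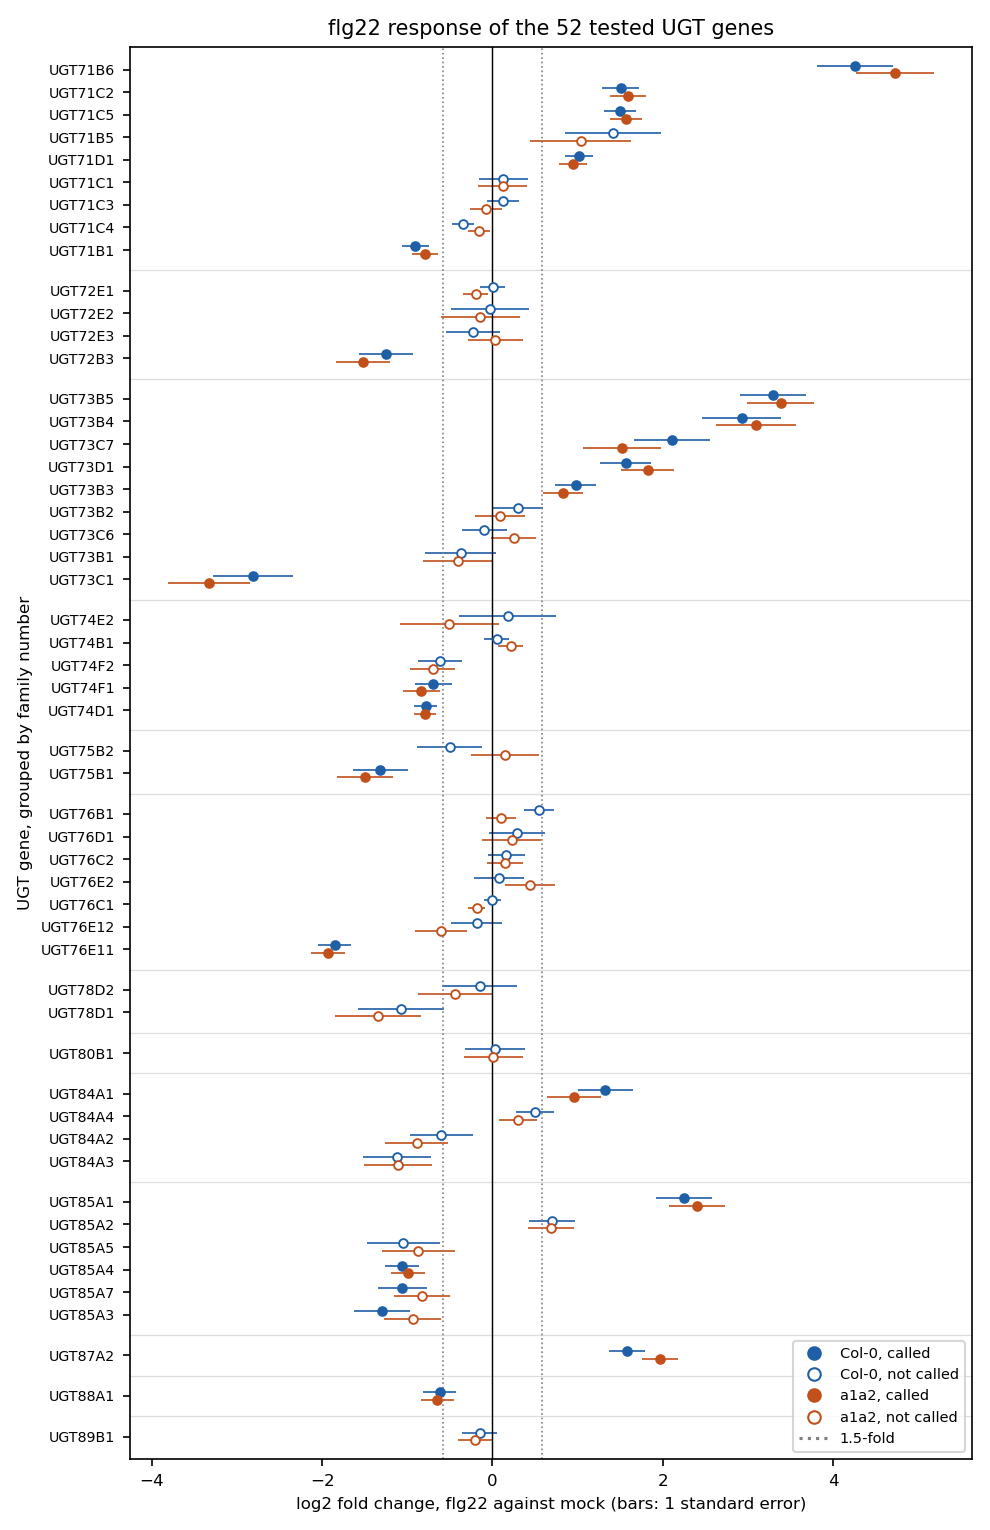
log2 fold change after flg22 (x axis) of each of the 52 tested UGT genes (y axis), grouped by family number, with blue for Col-0, orange for a1a2, filled points for DEGs, open points for genes not called, and bars of 1 standard error. UGT71B6 stood highest at 4.25 in Col-0 and 4.72 in a1a2, and UGT73C1 lowest at -2.82 and -3.32.

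Replicate numbers paired the libraries, since those with the same number deviated together from their group means. A fit with the replicate number as a block kept every one of these calls. It called 13 risen and 16 fallen UGT genes in Col-0 and 13 and 15 in a1a2, against 24.6% and 24.8% of all tested genes. The genes added in both genotypes were UGT85A2, which rose (log2 fold change 0.67 and 0.69 in that fit), and UGT74F2, UGT78D1, UGT84A2, UGT84A3 and UGT85A5, which fell. UGT85A3 was added in a1a2 (-0.94, adjusted p = 0.025). UGT85A7 was then called in Col-0 and not in a1a2, but it had entered the test only through the Col-0 mock group, in which it was highest. Without the block, leaving out a single library brought some of these genes past the threshold, and also UGT84A4 and UGT71B5, which the block did not add. UGT84A3 passed in Col-0 without Col-0 mock replicate 3 (-1.40), a1a2 mock replicate 1 (-1.17) or a1a2 mock replicate 3 (-1.12), and UGT85A2 passed there without Col-0 flg22 replicate 3 (0.91). UGT85A5 passed in Col-0 without Col-0 mock replicate 3 (-1.33), as did UGT84A4 (0.74), and UGT71B5 passed without Col-0 flg22 replicate 3 (1.85). UGT71B5 reached 10 counts in 2 libraries of each flg22 group, 1 of mock a1a2 and 0 of mock Col-0. It thus entered the test mainly through the treated libraries, in which it was higher, and nothing is read from its change. In a1a2, UGT74F2 passed without Col-0 mock replicate 1 (-0.74) or a1a2 flg22 replicate 1 (-1.001), UGT78D1 without Col-0 flg22 replicate 1 (-1.38) or a1a2 mock replicate 1 (-1.62), and UGT85A2 without Col-0 flg22 replicate 3 (0.69) or a1a2 flg22 replicate 3 (0.86). UGT84A3 passed in a1a2 without any of Col-0 mock replicates 1 and 3, a1a2 mock replicate 3 and a1a2 flg22 replicate 1 (-1.11 to -1.46), and UGT85A3 without Col-0 flg22 replicate 2 (-0.94) or a1a2 flg22 replicate 1 (-1.28).

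All 4 genes of the group known for its response to pathogens, UGT73B3, UGT73B4, UGT73B5 and UGT73C7, rose in both genotypes. Their median log2 fold change was 2.52 in Col-0 and 2.31 in a1a2, and 13.9% of all tested genes rose in each genotype. The list was drawn up for that response, with earlier results of these data known, so its rise is a description and not a test. UGT73B4 and UGT73B5 are also the near copies whose separate values are uncertain. UGT73B3 and UGT73B5 are needed for full resistance to an avirulent Pseudomonas strain. UGT73B5 stood at 24.9, 20.5 and 16.5 CPM in the mock Col-0 libraries (replicates 1 to 3) and at 278.8, 177.8 and 150.5 CPM after flg22. In a1a2 it went from 18.9, 21.98 and 9.27 CPM to 253.3, 153.1 and 117.9 CPM. The treated libraries lay far above the mock libraries in both genotypes, a rise of 9.81-fold (log2 3.29 ± 0.39, SE) in Col-0 and 10.4-fold (3.38 ± 0.39) in a1a2, with adjusted p of 6.6e-05 and 5.2e-05. UGT73B4, the adjacent gene, went from 23.7, 20.2 and 12.9 CPM to 203.1, 148.4 and 80.0 CPM in Col-0. In a1a2 it went from 13.8, 21.0 and 7.91 CPM to 183.4, 103.2 and 77.9 CPM. These are rises of 7.59-fold and 8.52-fold (log2 2.92 ± 0.46 and 3.09 ± 0.47, adjusted p = 0.00061 and 0.00042), and replicate 3 was the lowest library of every group for both genes.

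UGT73C7 was far less abundant. Its mock Col-0 libraries held 0.930, 1.15 and 0.637 CPM and its treated ones 6.27, 2.84 and 2.67 CPM. The a1a2 libraries held 0.671, 1.14 and 0.743 CPM in mock and 3.83, 2.08 and 1.43 CPM after flg22. Groups did not overlap in either genotype, and the rise was 4.32-fold in Col-0 (log2 2.11 ± 0.45, adjusted p = 0.0041) and 2.87-fold in a1a2 (1.52 ± 0.46, adjusted p = 0.028). The a1a2 call was lost without a1a2 mock replicate 1 (1.34, adjusted p = 0.10), a1a2 mock replicate 3 (1.44, adjusted p = 0.085) or a1a2 flg22 replicate 1 (1.00, adjusted p = 0.16). UGT73B3 rose 1.97-fold in Col-0 and 1.78-fold in a1a2 (log2 0.98 ± 0.24 and 0.83 ± 0.24). Its a1a2 call was lost without a1a2 mock replicate 1 (0.86, adjusted p = 0.051), a1a2 mock replicate 3 (0.63, adjusted p = 0.077) or a1a2 flg22 replicate 1 (0.51, adjusted p = 0.14). With the library total alone it was lost as well (0.58, adjusted p = 0.093). Antisense or neighbouring genes overlap UGT73B3, and the counting was not stated to use strand, so its reads cannot be told apart from theirs.

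**Figure D2:**
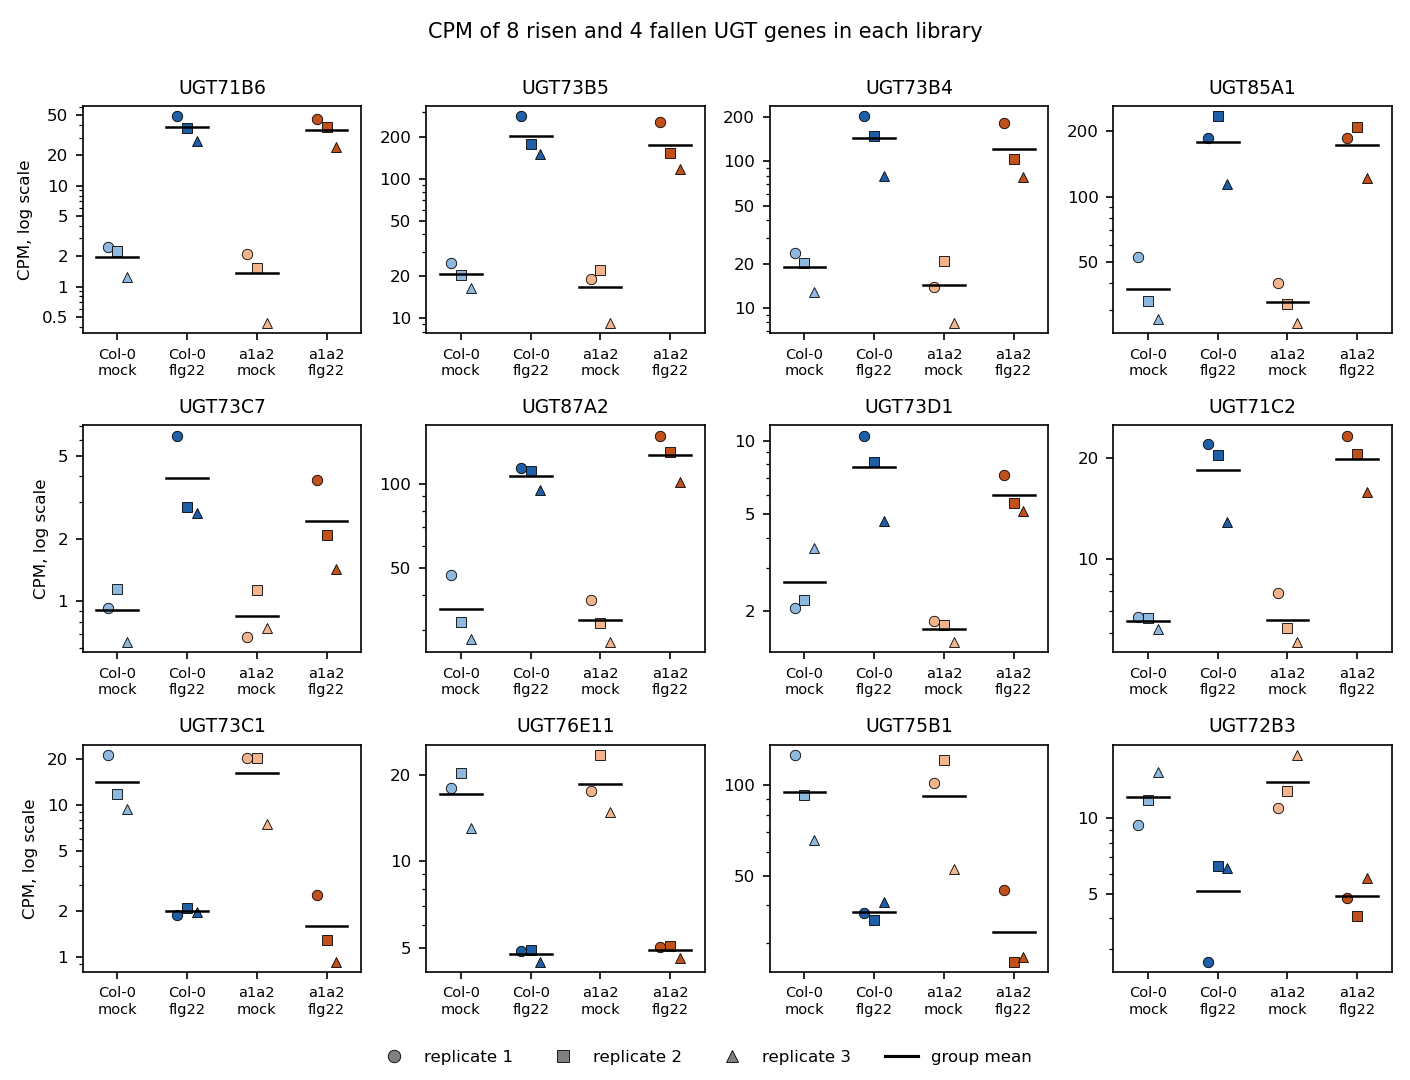
CPM on a log axis (y) in each of the 12 libraries, by group (x), of the 8 UGT genes with the largest mean rise and the 4 with the largest mean fall among those called in both genotypes. Point shapes mark replicate numbers and black lines group means. For all 12 genes the treated and mock libraries of each genotype lay apart.

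Of the 4 UGT genes listed for abscisic acid, 3 were found by symbol. The 2 tested ones, UGT71B6 and UGT71C5, rose in both genotypes, where 13.9% of all tested genes rose in each. UGT71B8 was not tested, and UGT71B7 was not found under that name. The row AT3G21790, whose locus number lies between those of UGT71B6 and UGT71B8, was not called (log2 fold change 0.14 in Col-0 and 0.36 in a1a2). UGT71B6, which makes the glucose ester of abscisic acid, had the largest change of all tested UGT genes. It stood at 2.47, 2.26 and 1.23 CPM in mock Col-0 and at 48.8, 37.5 and 27.7 CPM after flg22. In a1a2 the values were 2.09, 1.53 and 0.437 CPM in mock and 45.6, 38.3 and 24.5 CPM after flg22. All 6 treated libraries lay far above all 6 mock libraries, 19.1-fold higher in Col-0 (log2 4.25 ± 0.44, adjusted p = 2.4e-05) and 26.4-fold in a1a2 (4.72 ± 0.46, adjusted p = 1.3e-05). UGT71C5, which sets the level of the same glucose ester in planta, started higher, at 21.8 to 27.9 CPM in mock Col-0 and 17.6 to 24.7 CPM in mock a1a2. After flg22 it reached 54.3 to 75.6 CPM and 52.1 to 75.1 CPM, rises of 2.82-fold and 2.96-fold (adjusted p = 9.6e-05 and 6.4e-05). A non-coding gene on the opposite strand overlaps UGT71B6.

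The UGT genes known for cytokinins split. UGT85A1, which glucosylates zeatin at its side chain, rose. Its mock libraries held 52.5, 33.0 and 27.3 CPM in Col-0 and 39.9, 32.0 and 26.1 CPM in a1a2. After flg22 they held 186.9, 234.8 and 114.4 CPM and 186.3, 210.6 and 122.2 CPM. Every treated library was above every mock library, and the rise was 4.75-fold in Col-0 (log2 2.25 ± 0.33, adjusted p = 3.0e-04) and 5.29-fold in a1a2 (2.40 ± 0.33, adjusted p = 1.9e-04). UGT73C1, which also acts on zeatin and on foreign nitroaromatic compounds, had the largest fall. It went from 21.2, 11.8 and 9.34 CPM to 1.90, 2.12 and 1.99 CPM in Col-0. In a1a2 it went from 20.4, 20.4 and 7.48 CPM to 2.57, 1.30 and 0.938 CPM. The mock libraries were the variable ones, replicate 3 being lowest, and the groups still lay apart: UGT73C1 was 7.04-fold lower in Col-0 (log2 -2.82 ± 0.47, adjusted p = 8.5e-04) and 10.0-fold lower in a1a2 (-3.32 ± 0.48, adjusted p = 3.0e-04). UGT76C1 and UGT76C2, which glucosylate cytokinins at a ring nitrogen, were not called. Their log2 fold changes were -0.0021 ± 0.10 and 0.16 ± 0.21 in Col-0 and -0.19 ± 0.10 and 0.15 ± 0.21 in a1a2.

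Further genes that rose were UGT87A2, UGT73D1 and UGT71C2. UGT87A2, known for an effect on flowering time, stood at 47.2, 32.1 and 27.7 CPM in mock Col-0 and at 113.2, 111.0 and 94.8 CPM after flg22. In a1a2 it went from 38.3, 31.9 and 27.2 CPM to 148.0, 129.9 and 101.5 CPM. The rise was 2.98-fold in Col-0 (log2 1.58 ± 0.21) and 3.90-fold in a1a2 (1.96 ± 0.21), with no overlap of treated and mock libraries. UGT73D1 went from 2.06, 2.21 and 3.61 CPM to 10.5, 8.20 and 4.66 CPM in Col-0, and from 1.82, 1.75 and 1.49 CPM to 7.26, 5.53 and 5.13 CPM in a1a2. In Col-0 the third replicate had both the highest mock and the lowest treated value, and the groups came close (2.96-fold, adjusted p = 0.0022), whereas in a1a2 they were well apart (3.53-fold, adjusted p = 9.8e-04). UGT71C2 rose from 6.71, 6.64 and 6.16 CPM to 22.1, 20.4 and 12.9 CPM in Col-0 (2.83-fold), and from 7.89, 6.22 and 5.64 CPM to 23.3, 20.5 and 15.8 CPM in a1a2 (3.02-fold). UGT71D1 rose 2.02-fold in Col-0 and 1.93-fold in a1a2.

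Among fallen genes, UGT76E11 had closely spaced treated libraries. It and its near copy UGT76E12 act on hydroxylated jasmonate and on flavonols. UGT76E11 went from 18.1, 20.3 and 13.0 CPM in mock Col-0 to 4.88, 4.90 and 4.47 CPM after flg22. In a1a2 it went from 17.6, 23.5 and 14.9 CPM to 5.04, 5.06 and 4.59 CPM. All 6 treated libraries lay within a narrow band, and the fall was 3.61-fold in Col-0 (log2 -1.85 ± 0.19, adjusted p = 2.3e-05) and 3.81-fold in a1a2 (-1.93 ± 0.19, adjusted p = 1.5e-05). UGT76E12 shares 87.7% of its coding bases with UGT76E11 and was not called (-0.19 ± 0.30 and -0.60 ± 0.30). UGT76E2, of the same group, had 0.079 ± 0.29 and 0.44 ± 0.29, and UGT76E1 was not tested. Antisense transcripts overlap both UGT76E11 and UGT76E12.

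UGT75B1, which conjugates p-aminobenzoate and was found at the forming cell plate, fell from 126.1, 93.1 and 65.8 CPM to 37.5, 35.8 and 40.9 CPM in Col-0. In a1a2 it fell from 102.0, 121.1 and 52.7 CPM to 44.8, 26.0 and 26.9 CPM. It was thus 2.50-fold lower in Col-0 (adjusted p = 0.0099) and 2.82-fold lower in a1a2 (adjusted p = 0.0048), with mock replicate 3 the lowest mock library in both. UGT72B3 fell from 9.42, 11.9 and 15.4 CPM to 2.67, 6.45 and 6.32 CPM in Col-0 (2.37-fold), and from 11.1, 12.9 and 17.9 CPM to 4.79, 4.07 and 5.77 CPM in a1a2 (2.86-fold). Here mock replicate 3 was the highest mock library. Smaller falls in both genotypes were those of UGT85A4 (2.08-fold in Col-0 and 1.98-fold in a1a2), UGT71B1 (1.87-fold and 1.73-fold), UGT74D1 (1.72-fold and 1.73-fold), UGT74F1 (1.62-fold and 1.78-fold) and UGT88A1 (1.54-fold and 1.57-fold).

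The calls of UGT74F1 and UGT88A1 were near the threshold. In Col-0, UGT74F1 lost its call without Col-0 mock replicate 1 (adjusted p = 0.076), Col-0 mock replicate 3 (0.090), Col-0 flg22 replicate 1 (0.061) or Col-0 flg22 replicate 2 (0.11). In a1a2 it lost it without a1a2 mock replicate 3 (0.067) or a1a2 flg22 replicate 2 (0.056). UGT88A1 lost its Col-0 call without Col-0 mock replicate 2 (adjusted p = 0.0945), Col-0 mock replicate 3 (0.091) or Col-0 flg22 replicate 1, which took its log2 fold change to -0.46. It lost its a1a2 call without a1a2 mock replicate 2 (adjusted p = 0.076), a1a2 mock replicate 3 (0.084), a1a2 flg22 replicate 1 (0.062) or a1a2 flg22 replicate 3 (0.064).

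UGT85A3 and UGT85A7, the genes called in Col-0 alone, were both of low abundance. UGT85A3 held 1.78, 1.86 and 1.23 CPM in mock Col-0 and 0.514, 0.9801 and 0.486 CPM after flg22. In a1a2 it held 1.38, 1.27 and 1.14 CPM and 0.907, 0.521 and 0.543 CPM. The treated libraries were lower in both genotypes without overlap, by 2.45-fold in Col-0 (adjusted p = 0.011) and 1.91-fold in a1a2 (adjusted p = 0.056). UGT85A7 went from 0.607, 0.841 and 0.680 CPM to 0.308, 0.309 and 0.389 CPM in Col-0, and from 0.474, 0.350 and 0.350 CPM to 0.202, 0.209 and 0.247 CPM in a1a2. It reached 10 counts in all 3 libraries of the Col-0 mock group only, so it passed the filter on low counts through the group in which it was highest. The flg22 effects of UGT85A3 and UGT85A7 were not called different between the genotypes by the interaction test (log2 difference 0.36 ± 0.47 and 0.24 ± 0.46, adjusted p = 1.0 for both). UGT85A7 lost its Col-0 call without Col-0 mock replicate 2 (adjusted p = 0.084), Col-0 flg22 replicate 1 (0.054) or Col-0 flg22 replicate 2 (0.061).

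Salicylate, the central hormone of defence against biotrophs, is conjugated by several UGTs. Of the 5 tested genes of this list, 1 fell in each genotype and none rose without the replicate block. This is 20.0%, close to the 21.0% and 21.2% of all tested genes. The gene that fell was UGT74F1, which makes the salicylate glucoside, at 2.43 to 3.20 CPM in mock Col-0 and 1.60 to 1.99 CPM after flg22. A protein-coding and a non-coding gene on the opposite strand overlap UGT74F1. UGT74F2, which makes the glucose ester and is the abundant member, stood at 67.8 to 120.5 CPM in mock Col-0 and 49.4 to 74.0 CPM after flg22. Its log2 fold change of -0.62 ± 0.26 in Col-0 and -0.70 ± 0.26 in a1a2 missed the threshold (adjusted p = 0.11 and 0.068). With the replicate block it fell in both (adjusted p = 0.0014 and 4.1e-04), where 24.6% and 24.8% of all tested genes were called. UGT76B1, which conjugates salicylate, isoleucic acid and N-hydroxypipecolic acid, is described with the genotypes. UGT71C3, which acts on methyl salicylate, had log2 fold changes of 0.12 ± 0.19 and -0.079 ± 0.19, and UGT76D1, which acts on dihydroxybenzoic acids, 0.29 ± 0.33 and 0.22 ± 0.35.

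Of the auxin list, 3 of 5 genes were found by symbol and 2 were tested. UGT74D1, which conjugates oxidized indole acetic acid, fell from 72.0, 75.9 and 79.8 CPM to 37.8, 43.4 and 51.0 CPM in Col-0 (log2 -0.78 ± 0.13, adjusted p = 0.0010) and by as much in a1a2 (-0.79 ± 0.13, adjusted p = 8.8e-04). UGT74E2, which acts on indole butyric acid, varied widely between replicates, from 11.4 to 30.6 CPM in mock Col-0 and from 5.38 to 30.4 CPM in mock a1a2, with log2 fold changes of 0.18 ± 0.57 and -0.51 ± 0.58. A non-coding gene on the opposite strand overlaps UGT74D1. Of the brassinosteroid genes, UGT73C6 had log2 fold changes of -0.095 ± 0.26 in Col-0 and 0.25 ± 0.26 in a1a2, and the row DOGT1, which RefSeq gives as UGT73C5, had -0.71 in Col-0 and -0.60 in a1a2. Neither was called. UGT74B1, which adds the glucose of the glucosinolate core, was not called either (0.049 ± 0.15 and 0.21 ± 0.15, at 63.2 to 75.3 CPM in mock Col-0). Of the 2 genes listed for that core it was the only 1 found by name. UGT74C1 was not found, so the response of the list as a whole is not described.

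Of the 8 genes of phenylpropanoid and monolignol conjugation, 1 rose and none fell in Col-0 without the replicate block. This is 12.5%, against 21.0% of all tested genes. In a1a2, 1 rose and 1 fell without the block, where 21.2% of all tested genes were called. With the block more genes of the list were called, as given below. The gene called in Col-0 without it was UGT84A1. It makes glucose esters of hydroxycinnamates and rose 2.50-fold in Col-0 (log2 1.32 ± 0.32, adjusted p = 0.0090) and 1.94-fold in a1a2 (0.95 ± 0.32, adjusted p = 0.043). The a1a2 call was lost without any of 8 libraries: Col-0 mock replicate 1, 2 or 3, Col-0 flg22 replicate 1, a1a2 mock replicate 1 or 3, and a1a2 flg22 replicate 1 or 3 (adjusted p from 0.051 to 0.17, log2 fold change from 0.68 to 0.96). It was also lost with the library total alone (0.72, adjusted p = 0.10). UGT84A2, which makes sinapoyl glucose, had -0.60 ± 0.37 in Col-0 and -0.89 ± 0.37 in a1a2, and UGT84A3 had -1.12 ± 0.40 and -1.11 ± 0.40. Neither was called without the replicate block, and both fell with it (UGT84A2 adjusted p = 1.9e-04 and 7.5e-06, UGT84A3 2.8e-04 and 2.4e-04). With the block, 24.6% (Col-0) and 24.8% (a1a2) of all tested genes were called. UGT84A4 had 0.50 ± 0.23 and 0.30 ± 0.23. The monolignol genes UGT72E1, UGT72E2 and UGT72E3 had log2 fold changes of 0.0052 ± 0.15, -0.033 ± 0.46 and -0.22 ± 0.32 in Col-0, and of -0.20 ± 0.15, -0.14 ± 0.46 and 0.031 ± 0.32 in a1a2. The row GT72B1, which RefSeq gives as UGT72B1, fell in a1a2 (-0.86) and was not called in Col-0 (-0.54).

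Of the flavonoid and anthocyanin genes, none of the 3 tested was called without the block. UGT78D1, the flavonol rhamnosyltransferase, went from 30.3, 32.0 and 58.6 CPM to 9.10, 19.6 and 28.6 CPM in Col-0 and from 35.6, 36.5 and 96.8 CPM to 14.1, 20.3 and 31.8 CPM in a1a2. Replicate 3 was the highest library of every group, and within each replicate number the treated library was the lower. With the replicate block UGT78D1 fell in both genotypes (log2 -1.13 and -1.28, adjusted p = 5.3e-04 and 1.8e-04), where without it the adjusted p was 0.15 and 0.070. UGT78D2, the flavonoid glucosyltransferase, had -0.15 ± 0.44 and -0.44 ± 0.43, and the row UF3GT, which RefSeq gives as UGT79B1, had -1.64 and -1.15 and was not called. The sterol glucosyltransferase UGT80B1 had 0.031 ± 0.35 and 0.011 ± 0.35, and the row SGT, given as UGT80A2, had 0.18 and 0.27, neither called.

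By family number, families 71 and 73 held 9 of the 12 risen genes and 18 of the 52 tested ones, where 13.9% of all tested genes rose in each genotype and 7.06% (Col-0) and 7.29% (a1a2) fell. In family 71, 4 of 9 tested genes rose and 1 fell in each genotype, and in family 73, 5 of 9 rose and 1 fell. Family 85 had 1 risen and 3 fallen genes of 6 in Col-0 and 1 of each in a1a2. The 3 include UGT85A7, which passed the filter only through the Col-0 mock group, in which it was highest. Family 84 had 1 risen gene of 4, and the single gene of family 87 rose. Families 72, 74, 75, 76 and 88 had fallen genes and no risen ones, and families 78, 80 and 89 had no gene called in either genotype. These counts are without the replicate block. With it UGT74F2, UGT78D1, UGT84A2, UGT84A3 and UGT85A5 also fell in both genotypes, so that family 78 had a fallen gene. UGT85A3 then fell in a1a2 as well, and UGT85A2 rose in both genotypes. Summed CPM over all tested genes also rose after flg22. In summed CPM, family 73 went from 194.2 to 515.1 CPM in Col-0 and from 181.9 to 443.8 CPM in a1a2 (group means). Family 85 went from 133.1 to 304.1 CPM and from 121.3 to 291.0 CPM, whereas family 75 went from 96.4 to 39.0 CPM and from 92.8 to 33.5 CPM.

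Calls of neighbouring UGT genes are given as a description, since no share over other pairs of genes was computed. There were 18 pairs of UGT genes with no other protein-coding gene between them, and both genes were tested in 15. In Col-0 both genes rose in 2 pairs, UGT73B5 with UGT73B4 and UGT73D1 with UGT73C7. The former are the near copies whose separate values are uncertain, and the latter had 56.7% coding identity only. In 1 pair the first gene fell and the second rose, UGT85A3 with UGT85A1, at 81.8% identity. Both genes fell in none, and neither was called in 5. With the replicate block both rose in 2 of the 15 pairs, both fell in 2 (UGT74F2 with UGT74F1 and UGT85A5 with UGT85A3), 1 rose and the other fell in 4, and neither was called in 3. On chromosome 1, UGT85A7, UGT85A2, UGT85A5, UGT85A3 and UGT85A1 follow each other, with log2 fold changes of -1.06, 0.70, -1.05, -1.30 and 2.25 in Col-0, so that the sign changed along the row. The value of UGT85A7, and so its pair with UGT85A2, is limited, since it passed the filter only through the Col-0 mock group, in which it was highest. UGT85A2 and UGT85A5 were not called over the 12 libraries without the replicate block and were called with it (0.67, adjusted p = 6.0e-05, and -1.005, adjusted p = 7.5e-04). On chromosome 4, UGT73B3 rose (0.98) while UGT73B2, at 88.7% identity, and UGT73B1 were not called (0.30 ± 0.30 and -0.37 ± 0.41). On chromosome 2, UGT71C2 rose (1.503) beside UGT71C1 (0.13 ± 0.29, 83.4% identity), and on chromosome 4, UGT84A1 rose (1.32) beside UGT84A3 (-1.12 ± 0.40). The difference between neighbours was not tested.

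**Figure D3:**
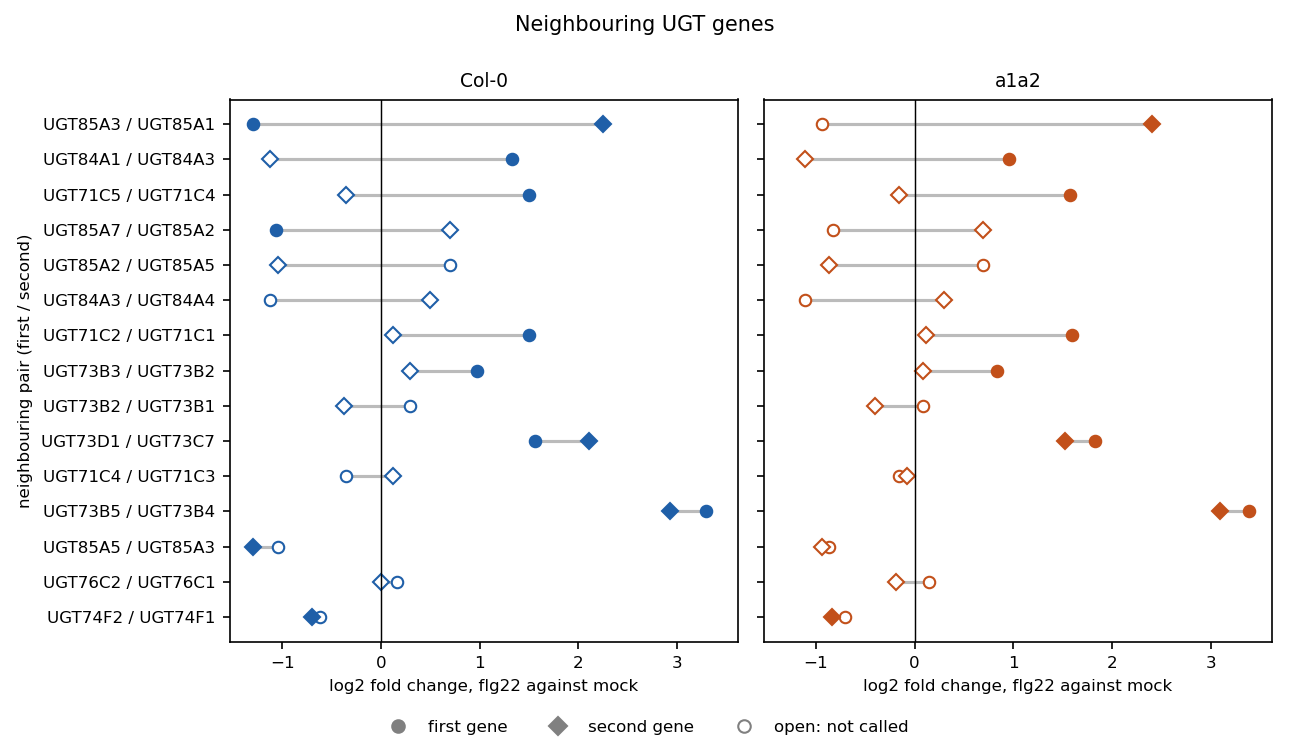
log2 fold change after flg22 (x axis) of the 15 pairs of adjacent tested UGT genes (y axis) in Col-0 (left) and a1a2 (right). Circles are the first and diamonds the second gene of a pair, open symbols are genes not called, and the pairs are ordered by the gap in Col-0, which was widest for UGT85A3 and UGT85A1 (-1.30 and 2.25).

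To ask whether loss of the Arg-transferases alters UGT expression, a1a2 was compared with Col-0 within each treatment. No tested UGT gene was a DEG in mock (0.166% of all tested genes were) or after flg22 (0.137%), either in edgeR or in DESeq2. At an unadjusted p below 0.05, 3 of 52 were in mock and 3 after flg22, against 4.6% and 4.65% of all tested genes. Libraries of a1a2 lay wholly below those of Col-0 for 3 UGT genes in mock and 4 after flg22 (5.34% and 4.45% of all tested genes), and wholly above for 0 in either (4.44% and 3.55%). UGT85A7 is among the 3 with low p in mock and among the genes wholly below in both treatments. It passed the filter only through the Col-0 mock group, in which it was highest, so nothing is read from its part in these counts. With the replicate block no UGT gene was called, against 0.959% and 0.827% of all genes. The genes with the smallest p in mock were UGT85A7, UGT72E1 and UGT76D1, and after flg22 UGT72E1, UGT76B1 and UGT76D1, all with lower estimates in a1a2.

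UGT72E1, which acts on monolignol aldehydes, came nearest. It stood at 99.4, 140.6 and 104.3 CPM in mock Col-0 and 87.5, 86.4 and 89.4 CPM in mock a1a2. After flg22 it stood at 103.2, 136.5 and 105.9 CPM in Col-0 and 73.3, 72.4 and 83.9 CPM in a1a2. All 6 a1a2 libraries lay below all 6 Col-0 libraries, with log2 differences of -0.39 ± 0.15 in mock and -0.59 ± 0.15 after flg22 that did not pass the test (adjusted p = 0.91 and 0.44). With the replicate block the difference after flg22 had an adjusted p of 0.045, at -0.58, just under the 1.5-fold threshold. UGT76B1 overlapped between genotypes in mock, at 32.4, 40.3 and 41.1 CPM in Col-0 and 31.2, 35.6 and 42.0 CPM in a1a2. After flg22 it held 56.4, 61.8 and 47.7 CPM in Col-0 and 38.6, 30.3 and 47.5 CPM in a1a2. The highest a1a2 library was thus just below the lowest Col-0 library, and the log2 difference was -0.51 ± 0.17 (adjusted p = 0.94). UGT76D1 held 2.18, 3.10 and 5.61 CPM in mock Col-0 and 2.80, 1.49 and 1.88 CPM in mock a1a2 (log2 -0.81 ± 0.34, adjusted p = 0.98). After flg22 it held 3.55, 4.90 and 4.86 CPM and 2.12, 2.40 and 2.71 CPM (-0.88 ± 0.34, adjusted p = 0.997). UGT85A7 had a log2 difference of -0.84 ± 0.27 in mock (adjusted p = 0.78), from which nothing is read, since the Col-0 mock group alone carried it past the filter on low counts.

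The interaction, the flg22 effect in a1a2 minus that in Col-0, was called for no UGT gene in edgeR or DESeq2, and for none of all tested genes in edgeR (0.0%). No UGT gene had an unadjusted p below 0.05, against 0.92% of all tested genes. The smallest p were those of UGT76B1, UGT87A2 and UGT76C1. In Col-0, UGT76B1 was 1.46-fold higher after flg22 with an adjusted p of 0.037, under the 1.5-fold threshold, which it passed without Col-0 flg22 replicate 3 (log2 0.64). In a1a2 its log2 fold change was 0.097 ± 0.17. The difference of these effects was -0.45 ± 0.25 (adjusted p = 1.0). UGT87A2 had the larger estimate in a1a2, by 0.39 ± 0.29 in log2 (adjusted p = 1.0) and UGT76C1, at 9.23 to 11.8 CPM in all 12 libraries, differed by -0.18 ± 0.15 (adjusted p = 1.0). Over the tested UGT genes the interaction estimates ran from -0.68 to 0.65. Of the 12 genes that rose in both genotypes 8 had the larger rise in a1a2, and of the 9 that fell in both 7 had the larger fall there. These genes share the same libraries and the share over all tested genes was not computed, so nothing is read from these counts. Both genotypes rest on 3 libraries per group, and none of these differences passed the test.

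**Figure D4:**
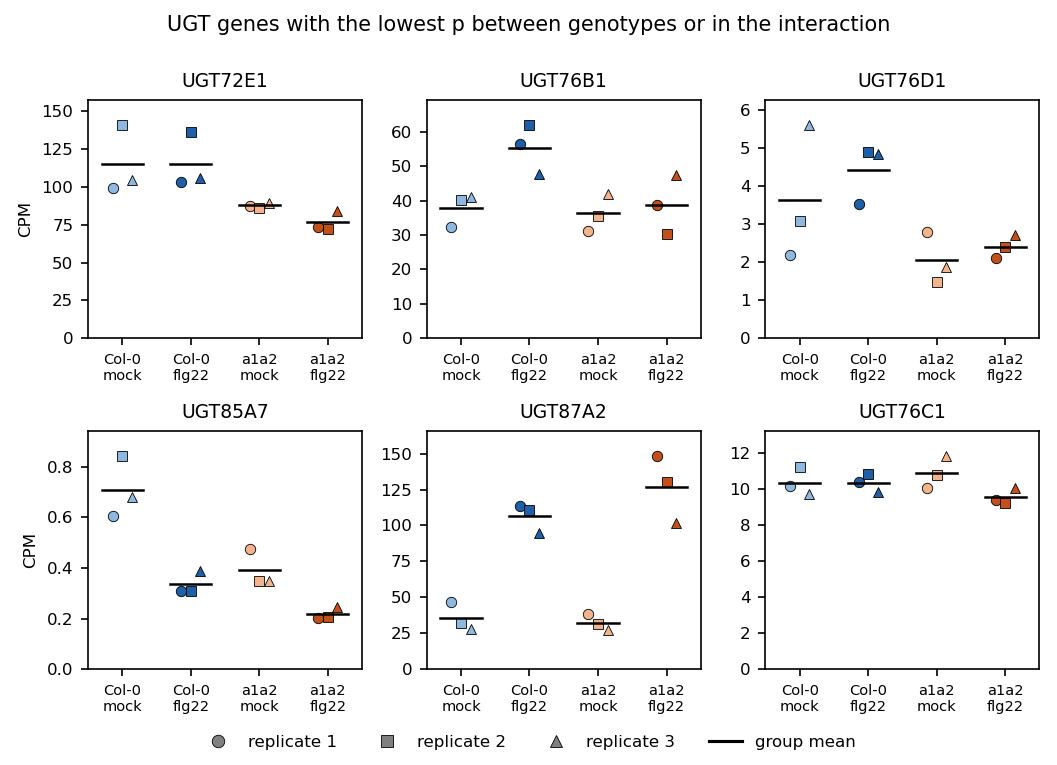
CPM (y axis, from 0) in each of the 12 libraries, by group (x axis), of the 6 UGT genes with the smallest p between genotypes or in the interaction. Point shapes mark replicate numbers and black lines group means. For UGT72E1 all a1a2 libraries, at 72.4 to 89.4 CPM, lay below all Col-0 libraries, at 99.4 to 140.6 CPM.

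Levels of different UGT genes were compared as CPM per kb of coding sequence, averaged over the 12 libraries. The 5 most abundant were UGT85A1 (71.8), UGT73B5 (71.2), UGT88A1 (67.7), UGT72E1 (67.3) and UGT85A2 (61.4). Their order depended on treatment: per coding kb, UGT88A1 and UGT72E1 led in mock Col-0 (79.3 and 78.4), and UGT73B5 and UGT85A1 after flg22 (139.1 and 121.6). The levels of UGT88A1 and UGT72E1 in mock Col-0 did not differ beyond the spread of their libraries, which ran for UGT88A1 from 92.3 to 120.5 CPM and for UGT72E1 from 99.4 to 140.6 CPM. UGT88A1 stood at 49.3, 83.2 and 82.4 CPM in Col-0 after flg22, and at 100.8, 125.1 and 130.4 CPM in mock and 71.6, 81.3 and 74.4 CPM after flg22 in a1a2. UGT85A2 held 76.0, 79.9 and 53.4 CPM in mock Col-0 and 113.9, 148.9 and 76.6 CPM after flg22, and in a1a2 71.1, 78.0 and 49.0 CPM and 122.1, 117.4 and 79.5 CPM. Its mock and treated libraries overlapped in Col-0 and lay apart in a1a2.

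UGTs draw on UDP-sugars, and the genes of UDP-sugar supply were examined as other genes of the pathway. Of 22 genes, 3 rose in Col-0 and 2 in a1a2, and none fell, which is 13.6% and 9.09% of the list, below the 21.0% and 21.2% of all tested genes. UGD2, a UDP-glucose dehydrogenase, rose from 102.5 ± 10.5 to 197.9 ± 12.8 CPM in Col-0 (n = 3) and from 97.3 ± 4.97 to 189.6 ± 26.7 CPM in a1a2. The UDP-glucose 4-epimerase genes UGE5 and UGE2 rose in Col-0 (log2 0.86 ± 0.22 and 0.60 ± 0.15), and in a1a2 UGE5 rose (0.73 ± 0.22) while UGE2 stayed under the 1.5-fold threshold (0.55 ± 0.15, adjusted p = 0.018). These 22 genes had a median log2 fold change of 0.12 (Col-0) and 0.062 (a1a2). The only gene of the list called between genotypes was SUS4, a sucrose synthase known for its induction by low oxygen. It stood at 3.69 ± 1.31 CPM in mock Col-0 and 43.3 ± 13.2 CPM in mock a1a2 (n = 3), and 3.28 ± 0.995 and 53.9 ± 20.4 CPM after flg22. Over all tested genes 0.166% were called in mock and 0.137% after flg22. SUS1 was not called but lay higher in a1a2 without overlap, by log2 1.29 ± 0.31 in mock and 1.55 ± 0.31 after flg22 (adjusted p = 0.33 and 0.16). Libraries of a1a2 lay wholly above those of Col-0 for 4 of the 22 genes in mock and wholly below for 1 (4.44% and 5.34% of all tested genes). After flg22 the numbers were 2 and 2 (3.55% and 4.45%).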

How the data were processed

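Poly(A) RNA of 12 whole-seedling libraries, 3 per group, was sequenced, and the authors counted reads per gene and deposited the values as estimated counts, of which 7.5% were fractional. Per the labels and the study's methods, reads were filtered with SOAPnuke. The submitters' processing notes name HISAT, DESeq2 and TAIR10. The counting tool, the annotation and the use of strand are not given in the sources used here. In RefSeq, 17 UGT genes overlap another annotated gene. Among them are the called genes UGT71B1, UGT74F1, UGT75B1, UGT84A1 and UGT85A4, each overlapped on the opposite strand. Reads of such overlaps cannot be told apart. The 4 columns of group averages were not used, and the proteomics of the study was not analysed here. Each library held 20285661 to 22433533 counts, which sets the precision of genes with few counts.

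Counts were rounded to whole numbers, filtered with filterByExpr, scaled by TMM and tested by edgeR (4.0.16, R 4.3.3) with robust quasi-likelihood fits over all 12 libraries, on simulated data first. DEGs had a Benjamini-Hochberg adjusted p below 0.05 over 20439 genes and a change over 1.5-fold. Groups and replicate numbers came from the labels. The study's methods describe 3 biological replicates, each with its own wells of seedlings, and p-values measure the spread between them. Same-numbered libraries correlated in their deviations from the group means (r from 0.218 to 0.660, at most 0.0545 for other numbers), so the numbers paired them, and a fit with this block was run beside the main one. Other alternatives were DESeq2 (1.42.0) and its size factors, library size alone, no filter, the 6 libraries of a comparison, adjusted p alone, and leaving out each library.

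All 58 genes were matched by Entrez ID to RefSeq's TAIR10.1, the source of the sequences. Values in every library were given for the 8 largest rises and 4 largest falls among genes called in both genotypes (mean of at least 1 CPM), genes called in 1 genotype, the 3 smallest p between genotypes in each treatment and in the interaction, and the 5 most abundant genes. The members of the role lists were named with their fold changes, and a few further genes for a position beside these. The UGT genes and the lists were chosen with earlier results of these data known.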

Additional observations from a re-analysis of the deposited data

How the results depend on the processing

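The number of UGT DEGs after flg22 (23 in Col-0, 21 in a1a2) stayed within 1.5 times under every alternative run. It was 29 and 28 with the replicate block, 27 and 27 with library size alone, 23 and 25 in DESeq2, 23 and 21 with its size factors, 24 and 22 with no filter on low counts, 21 and 19 with the 6 libraries of the comparison, 24 and 21 by adjusted p alone, and 20 to 26 and 17 to 22 with 1 library left out. Without the filter UGT73C2 was added in Col-0 (-5.14) and UGT78D3 in a1a2 (-4.22), both at very few counts. UGT85A7 lost its Col-0 call in DESeq2 (adjusted p = 0.085), and with the 6 libraries alone UGT74F1 (0.061), UGT88A1 (0.082) and UGT85A7 (0.058) lost theirs in Col-0 and UGT84A1 (0.072) and UGT73B3 (0.083) in a1a2. Between genotypes no UGT gene was called under any of these, nor in the interaction, for which the 6 libraries of a comparison and adjusted p alone were not run. No called change reversed its direction.

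Single genes were followed through the alternatives for all called genes, the members of the role lists and a few others named in the text, and not for every UGT gene. Among those followed, signs reversed only for uncalled log2 fold changes. With library size alone, which moved the median gene to -0.26, these were in Col-0 UGT71C3 (-0.13), UGT72E1 (-0.24), UGT74B1 (-0.20), UGT74E2 (-0.088), UGT76C2 (-0.083), UGT76E2 (-0.16) and UGT80B1 (-0.22), and in a1a2 UGT72E3 (-0.21), UGT73C6 (-0.0165), UGT74B1 (-0.040), UGT76B1 (-0.14), UGT76C2 (-0.093), UGT76D1 (-0.038) and UGT80B1 (-0.26). UGT72E1 in Col-0 was -0.0136 with DESeq2 and -0.01365 with its size factors, and with the replicate block UGT72E2 in Col-0 was 0.0040 and UGT80B1 in a1a2 -0.0071. Leaving out 1 library gave, in Col-0, UGT72E1 -0.14 to 0.18, UGT72E2 -0.44 to 0.47, UGT72E3 -0.39 to 0.06, UGT73C6 -0.35 to 0.031, UGT74B1 -0.024 to 0.13, UGT74E2 -0.12 to 0.70, UGT76C1 -0.057 to 0.057, UGT76C2 -0.015 to 0.36, UGT76D1 -0.012 to 0.75, UGT76E12 -0.43 to 0.038, UGT76E2 -0.23 to 0.35, UGT78D2 -0.47 to 0.27 and UGT80B1 -0.23 to 0.26. In a1a2 it gave UGT71C3 -0.28 to 0.12, UGT72E2 -0.71 to 0.13, UGT72E3 -0.18 to 0.46, UGT74E2 -1.07 to 0.14, UGT76B1 -0.075 to 0.25, UGT76C2 -0.045 to 0.37, UGT78D2 -0.80 to 0.15 and UGT80B1 -0.19 to 0.27. The cause was not tested. Genes under 1 CPM are limited by their counts.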

Other observations

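For 74 further genes of the table, the RefSeq description or synonyms name a UDP-glycosyltransferase although the symbol does not have the form of a UGT name. They were taken by these words alone, and the set holds rows such as GBSS1, ATTPS6 and DGD1. Whether each gene encodes an enzyme that acts on small molecules was not checked, so the set is broader than the genes with a UGT name. Of the 69 tested, 10 rose and 5 fell after flg22 in Col-0 (21.7%), and 11 rose and 8 fell in a1a2 (27.5%), where 21.0% and 21.2% of all tested genes were called. The gene of this set with the largest rise, picked after its values were seen, was AT1G05675. It stood at 2.87, 0.797 and 2.04 CPM in the mock Col-0 libraries and at 641.1, 487.5 and 344.8 CPM after flg22, and in a1a2 at 1.93, 3.42 and 0.525 CPM and at 630.0, 588.6 and 393.6 CPM. Its log2 fold change was 7.999 ± 0.64 in Col-0 and 8.10 in a1a2, above that of any of the 52 tested genes with a UGT name.

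AT2G36770, also picked after its values were seen, lies on chromosome 2 like UGT73C1. It rose from 2.22, 1.59 and 1.15 CPM to 76.5, 37.7 and 39.5 CPM in Col-0 (log2 4.94 ± 0.41) and from 1.15, 1.75 and 0.568 CPM to 54.3, 48.3 and 35.9 CPM in a1a2, whereas UGT73C1 fell in both genotypes.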
